A study of Mus musculus with 15 samples.

Results

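The comparison described here asks which genes moved in the same direction in 4 groups of mouse neural progenitor cells given LINE-1 hairpins, with no called difference among these groups. Its members are genes: those called in the mean of the 4 hairpin groups, each weighted equally, against shControl. Of 15141 genes tested, 59 were called, and 50 of these (0.33% of genes tested) shifted alike in all 4 groups. The cells were wild type neural progenitor cells, dividing precursors of neurons and glia, grown with FGF2, EGF and heparin in all groups. Every group received plasmids with an shRNA and EGFP, and GFP+ cells were sorted 3 days later. The 12 hairpin libraries are shLINE_Orf1, shLINE_Orf2, shLINE_MdV_I and shLINE_Orf1+LINE-1, with 3 libraries each, and the 3 shControl libraries complete the 15 of the series. The design text gives hairpins to young and to old LINE-1, with a full-length element added to the hairpin for young LINE-1. The labels pair this added LINE-1 with shLINE_Orf1, and do not say which age of element shLINE_Orf2 or shLINE_MdV_I targets. By their labels, 2 of the 4 hairpin groups thus carry the same hairpin, shLINE_Orf1.

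LINE-1 elements are retrotransposons that copy themselves through an RNA intermediate and encode an RNA-binding protein (ORF1p) and an endonuclease with reverse transcriptase (ORF2p). A short hairpin RNA is processed by the cell's RNA interference machinery into a small RNA that guides cleavage of matching transcripts. LINE-1 RNA, the hairpin sequences and EGFP were not analysed here, so the extent of the knockdown is not known for any library.

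All 4 hairpin groups were compared with the same 3 shControl libraries. A value particular to shControl and a value shared by the LINE-1 hairpins therefore cannot be told apart, and the shared sign of the 4 single-group contrasts is not 4 separate observations. Nothing in the labels says that replicates came from separate cultures, so the p-values measure the spread between these libraries, which may be technical. In sorted cell populations, fewer cells of a type and less RNA per cell cannot be told apart either.

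Libraries held 39204176 to 51070448 gene counts. Levels are given as CPM (counts-per-million, the count of a gene relative to the scaled library size). On the first principal component of log2 CPM (23.9% of the variance), shLINE_Orf1 replicate 1 lay at 75.9 and shControl replicate 2 at 24.3, with the other libraries between -18.8 and 4.72. Mitochondrially encoded mRNAs took 3.61% of counts in that shLINE_Orf1 library and 2.02% in that shControl library, against 1.36% to 1.97% elsewhere. Where a gene list described in the text had another count of calls without these 2 libraries, the change is given. On the second component (9.18% of the variance), shControl replicate 1 lay at -31.5, with the other libraries between -22.2 and 20.9. The fits without those 2 libraries keep shControl replicate 1. The neural progenitor markers were at a summed level of 5479 to 9462 CPM in the hairpin libraries, against 5476 to 7323 CPM in shControl, and none of the 12 was under 1 CPM. None of these 12 was called with all libraries, and Hes5 was called higher without shLINE_Orf1 replicate 1 and shControl replicate 2. Among markers of other cells, 8 of 9 microglial, 5 of 6 endothelial and 6 of 7 mural and fibroblast genes were under 1 CPM, as were 4 of 12 neuronal genes (Gad2, Stmn2, Slc17a6 and Neurod1) and 2 of 10 of the oligodendrocyte lineage (Mag and Mog). Summed neuronal markers reached 392 to 485 CPM in the hairpin libraries, against 355 to 541 CPM in shControl, and astrocyte markers 3150 to 4456 CPM, against 3390 to 4071 CPM. Summed oligodendrocyte lineage markers reached 2195 to 3615 CPM in the hairpin libraries, against 3003 to 3535 CPM in shControl, and their median log2 fold change was -0.18 in shLINE_Orf1, 0.09 in shLINE_Orf2, 0.24 in shLINE_MdV_I and -0.23 in shLINE_Orf1+LINE-1.

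In the mean of the 4 hairpin groups, 37 genes rose (0.244% of genes tested) and 22 fell (0.145%). Every fold change given for this comparison is a log2 value with its SE, hairpin mean over shControl, with a p from edgeR's quasi-likelihood test after Benjamini-Hochberg adjustment over the 15141 genes. At an unadjusted p under 0.05, 1267 genes passed (8.37%). The median log2 fold change over all genes was -0.01. All 59 called genes had the same sign in the 4 single-group contrasts, as did 5142 of the 15141 genes tested, and a choice of genes by the mean of the 4 groups favours a shared sign. A gene was counted as shifting alike when, beyond its call, each single-group contrast had an unadjusted p under 0.05 and the 4 hairpin groups showed no called difference among themselves. Over the whole table, unadjusted p-values under 0.05 were held by 10.5% of all genes in shLINE_Orf1, 7.01% in shLINE_Orf2, 8.63% in shLINE_MdV_I and 8.76% in shLINE_Orf1+LINE-1. By this rule 32 genes were higher alike (0.211%) and 18 lower alike (0.119%). In 52 of the 59 genes the 12 hairpin libraries lay all on 1 side of the 3 shControl libraries, 35 above and 17 below. Over all genes tested, 194 (1.28%) showed such a separation, 0.885% above and 0.396% below. The 59 genes were called on these same libraries, which favours a separation, so it is a description only. For the named genes with the largest change, no overlap was also a condition of being named. The called genes just inside the threshold were Fzd9 at -0.37 ± 0.07 (adjusted p = 0.0456), Banp at 0.49 ± 0.10 (adjusted p = 0.0449) and Itga4 at -0.66 ± 0.13 (adjusted p = 0.0449), and those just outside included Itm2a at -0.45 ± 0.09 and Rcbtb1 at 0.42 ± 0.09, each with an adjusted p of 0.0521.

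The counts depend on single libraries. Without shLINE_Orf1 replicate 1, 98 genes were called higher and 73 lower, and all 59 were among them. Without both libraries that stand apart, 196 were called higher and 201 lower, again with all 59 among them. Without shControl replicate 1 the counts were 10 higher and 11 lower, and without shControl replicate 3 they were 9 higher and 12 lower, of which 20 and 18 were among the 59. Without shLINE_Orf1+LINE-1 replicate 2 they were 22 higher and 16 lower. Of the 59 genes, 12 were called whichever single library was left out, 6 higher and 6 lower: Cryab, Rab3b, Desi1, Atp6v1b2, Prss23, Hbs1l, Hist1h2bc, Hist1h1c, Serpina3n, Papln, Gsn and Mfge8. Each of the others lost its call when at least 1 library was left out.

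**Figure D1:**
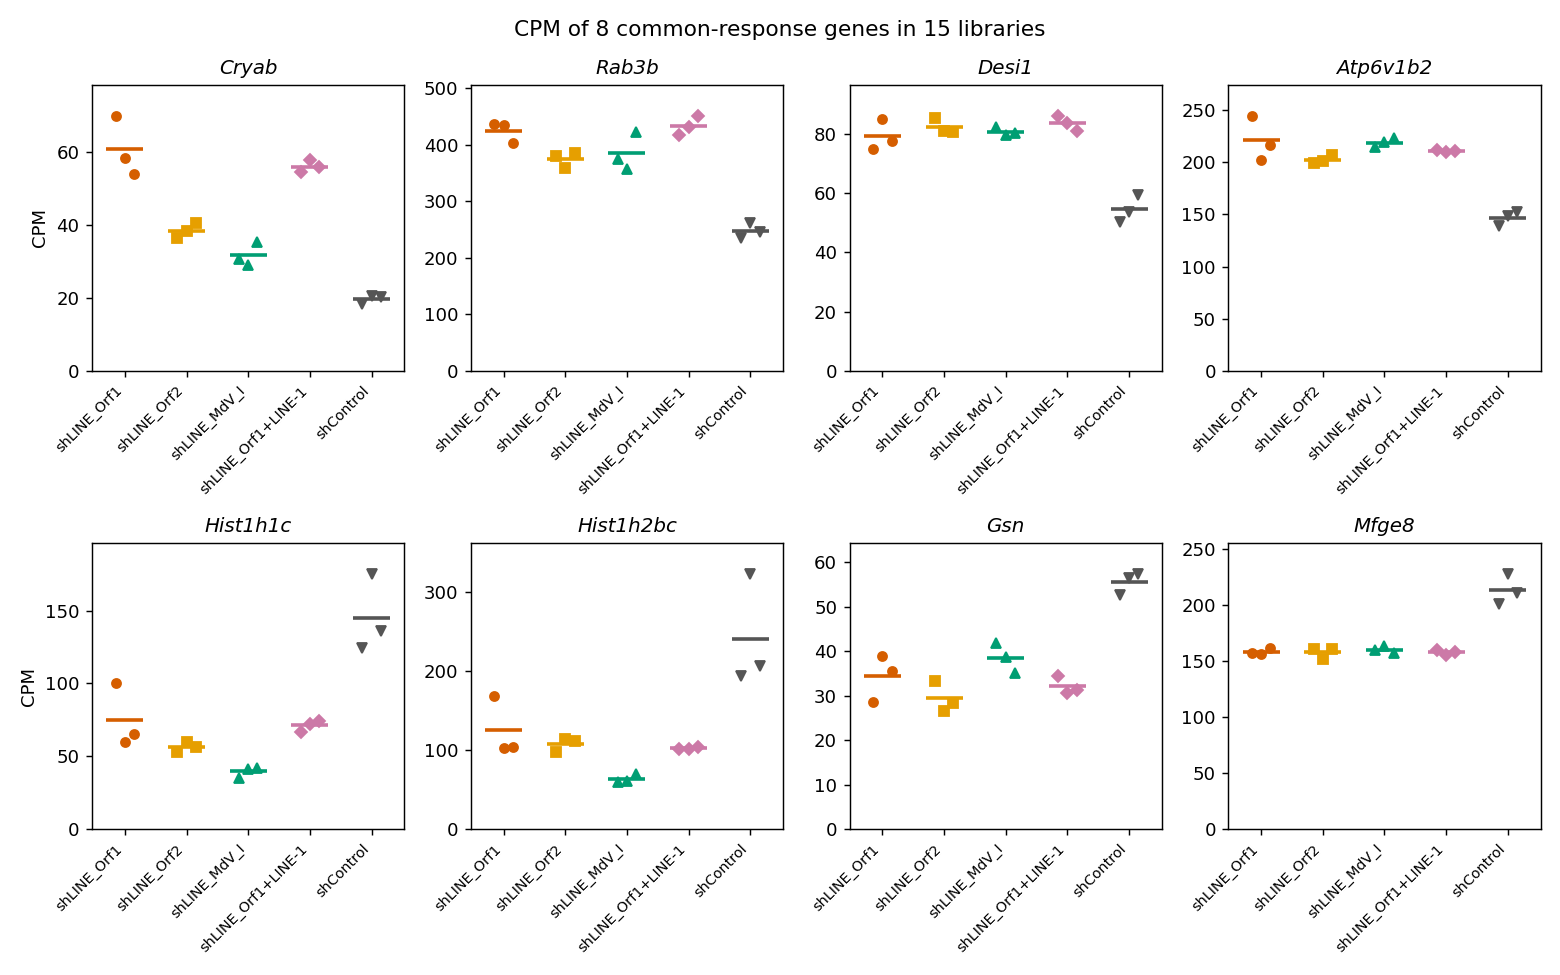
CPM (vertical axis, from 0) of 8 genes in each library of the 5 groups, with a bar at each group's mean. In all 8 panels the 12 hairpin libraries lie on 1 side of the 3 shControl libraries. Desi1 and Mfge8 sit at nearly the same level in all 4 hairpin groups, while Cryab and Hist1h1c are spread between groups.

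Among chaperones, Cryab encodes alpha B-crystallin, a small heat shock protein that holds unfolding proteins in solution (chr9:50751325-50756636, plus strand, GRCm38). It was at 69.9, 58.3 and 53.8 CPM in shLINE_Orf1, 36.4, 38.2 and 40.6 CPM in shLINE_Orf2, 30.6, 28.9 and 35.2 CPM in shLINE_MdV_I and 54.4, 57.6 and 55.8 CPM in shLINE_Orf1+LINE-1, against 18.3, 20.5 and 20.3 CPM in shControl. Every hairpin library exceeded every shControl library, and its order by group mean was shLINE_Orf1, shLINE_Orf1+LINE-1, shLINE_Orf2 and shLINE_MdV_I. Cryab rose by 1.19 ± 0.10 (adjusted p = 3.24e-05), the largest rise among called genes other than the predicted gene Gm15280. By group its log2 fold changes were 1.62 ± 0.11 in shLINE_Orf1, 0.96 ± 0.11 in shLINE_Orf2, 0.68 ± 0.11 in shLINE_MdV_I and 1.51 ± 0.11 in shLINE_Orf1+LINE-1. The shLINE_Orf1 and shLINE_Orf1+LINE-1 libraries overlapped, at 53.8 to 69.9 CPM and 54.4 to 57.6 CPM, and their difference was -0.12 ± 0.11 on the log2 scale. Libraries of shLINE_Orf2 and of shLINE_MdV_I did not overlap with those of shLINE_Orf1 or with each other. Of the 25 tested heat shock and chaperone genes on the list, Cryab was the 1 called, 14 had a positive log2 fold change, and their median was 0.02 beside -0.01 over all genes.

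Rab3b, Sec13 and Tmed3, which act in vesicle transport and secretion, were among the higher genes. Rab3b, a small GTPase of regulated exocytosis (chr4:108879063-108943324, plus strand), was at 437, 434 and 403 CPM in shLINE_Orf1, 381, 358 and 385 CPM in shLINE_Orf2, 374, 358 and 422 CPM in shLINE_MdV_I and 417, 431 and 452 CPM in shLINE_Orf1+LINE-1, against 235, 262 and 245 CPM in shControl. The hairpin libraries did not overlap with shControl. Rab3b rose by 0.71 ± 0.07 (adjusted p = 0.00042), and its 4 group values were 0.78 ± 0.09 in shLINE_Orf1, 0.60 ± 0.09 in shLINE_Orf2, 0.64 ± 0.09 in shLINE_MdV_I and 0.81 ± 0.09 in shLINE_Orf1+LINE-1. Sec13, a subunit of the COPII coat that carries cargo out of the endoplasmic reticulum, was at 207 to 302 CPM in the 12 hairpin libraries (median 225), against 137, 172 and 161 CPM in shControl. Tmed3, a p24-family receptor for cargo between the endoplasmic reticulum and the Golgi, was at 104 to 181 CPM in the 12 hairpin libraries (median 122), against 72.6, 99.9 and 76.2 CPM in shControl. Neither gene overlapped between the hairpin and shControl libraries, although shControl replicate 2 came nearest to the hairpin libraries in both. Sec13 rose by 0.55 ± 0.10 (adjusted p = 0.0201) and Tmed3 by 0.60 ± 0.11 (adjusted p = 0.0309). Without shLINE_Orf1 replicate 1 and shControl replicate 2 both remained called. Of 32 tested genes of transport between the endoplasmic reticulum and the Golgi, these 2 were called higher and none lower, 19 were positive, and the list median was 0.01. Of 24 genes of secretory GTPases and exocytosis, Rab3b was the 1 called, with a list median of 0.04.

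Outside these lists, Bloc1s5, a subunit of the BLOC-1 complex that builds lysosome-related organelles, rose by 0.58 ± 0.11 (adjusted p = 0.0323). Stx18, a SNARE protein of the endoplasmic reticulum, rose by 0.44 ± 0.09 (adjusted p = 0.0323), and Necap2, an adaptor of clathrin-coated vesicles, by 0.34 ± 0.06 (adjusted p = 0.0208). Necap2 showed how narrow a called shift can be, with 102 to 117 CPM in the 12 hairpin libraries (median 104), against 79.7, 87.7 and 86.1 CPM in shControl. Its lowest hairpin library was still above its highest shControl library. Stx18 overlaps Nsg1 on the opposite strand, and since the labels do not say whether strand was kept, reads of the 2 genes may be mixed. Nsg1 itself had a log2 fold change of 0.08 and was not called.

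Lysosomal acidification and the lysosomal membrane were each represented by 1 gene. Atp6v1b2 encodes the B2 subunit of the cytosolic part of the proton pump V-ATPase (chr8:69088646-69113711, plus strand). It was at 245, 202 and 216 CPM in shLINE_Orf1, 199.6, 201 and 207 CPM in shLINE_Orf2, 214, 219 and 223 CPM in shLINE_MdV_I and 212, 209.7 and 211 CPM in shLINE_Orf1+LINE-1, against 139, 149 and 152 CPM in shControl. No hairpin library came within the shControl range. Atp6v1b2 rose by 0.54 ± 0.07 (adjusted p = 0.00228) with nearly equal group values of 0.59 ± 0.09 in shLINE_Orf1, 0.47 ± 0.09 in shLINE_Orf2, 0.58 ± 0.09 in shLINE_MdV_I and 0.52 ± 0.09 in shLINE_Orf1+LINE-1. Lamp1, an abundant glycoprotein of the lysosomal membrane (chr8:13159161-13175338, plus strand), was at 671, 695 and 632 CPM in shLINE_Orf1, 594, 593 and 609 CPM in shLINE_Orf2, 545, 548 and 568 CPM in shLINE_MdV_I and 667, 646 and 676 CPM in shLINE_Orf1+LINE-1, against 482, 487 and 458 CPM in shControl. Its groups fell in the same order as those of Cryab, with shLINE_MdV_I nearest to shControl, and it rose by 0.38 ± 0.06 (adjusted p = 0.0137). Pip4p2, a phosphatase of phosphoinositides, rose by 0.43 ± 0.08 (adjusted p = 0.0204). Of 30 tested V-ATPase and lysosome genes Atp6v1b2 and Lamp1 were the 2 called, 8 were positive and the list median was -0.06.

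Lamp1 was also the gene whose 15 log2 CPM values were most like those of Cryab, with a Pearson correlation of 0.975 over the 15 libraries and 0.949 over the 12 hairpin libraries. The next were Asf1b (0.922), Osbpl1a (0.919), Gatm (0.919) and Rab3b (0.915). These values describe libraries that share groups and the same shControl samples. Asf1b and Osbpl1a were not called, with adjusted p-values of 0.218 and 0.214.

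**Figure D2:**
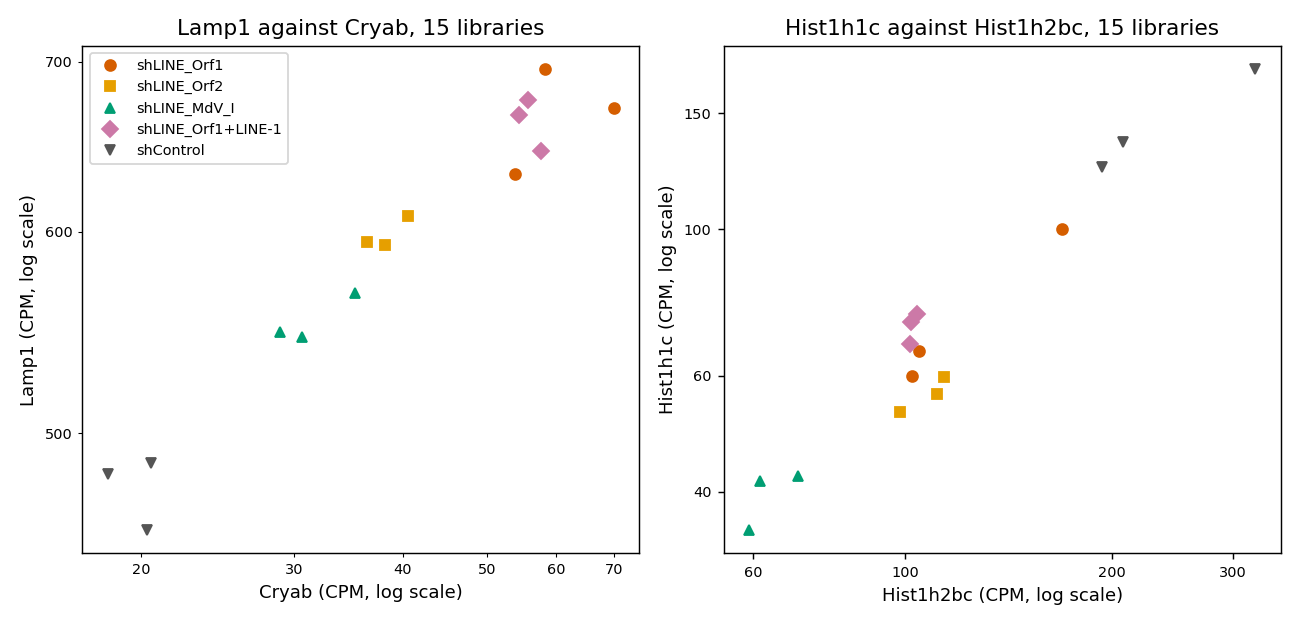
CPM on log scales for Lamp1 against Cryab (left) and for Hist1h1c against Hist1h2bc (right), with 1 point per library and the group given by colour and shape. The shControl libraries sit at the low end of the Cryab and Lamp1 panel and at the high end of the histone panel. In both panels shLINE_Orf1 and shLINE_Orf1+LINE-1 lie close together, apart from shLINE_Orf1 replicate 1.

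Mavs and Psmb6 rose, and the other genes of their lists were not called. Mavs is the mitochondrial adaptor through which the RNA sensors RIG-I and MDA5 signal (chr2:131234063-131248025, plus strand). It was at 22.1, 33.2 and 31 CPM in shLINE_Orf1, 33.4, 32.5 and 30.5 CPM in shLINE_Orf2, 30.7, 29.3 and 31.1 CPM in shLINE_MdV_I and 30.1, 30.5 and 28.3 CPM in shLINE_Orf1+LINE-1, against 18.2, 16.5 and 20.2 CPM in shControl. No hairpin library overlapped with shControl, and the lowest hairpin library was shLINE_Orf1 replicate 1. Mavs rose by 0.72 ± 0.11 (adjusted p = 0.00887), with group values of 0.65 ± 0.13 in shLINE_Orf1, 0.81 ± 0.13 in shLINE_Orf2, 0.73 ± 0.13 in shLINE_MdV_I and 0.69 ± 0.13 in shLINE_Orf1+LINE-1. Of the 18 tested genes of RNA and DNA sensing it was the 1 called, 6 were positive and the list median was -0.04. Traf3 was also called higher without the 2 libraries that stand apart, where the median was -0.13. Of 42 interferon-stimulated genes none was called by edgeR, with 1 higher and 10 lower at an unadjusted p under 0.05, 2 called by DESeq2 and 1 by limma-voom, and a list median of -0.07. Without those 2 libraries, edgeR called 1 higher and 1 lower (Tapbp and Gbp6). By group the list median with all libraries was 0.01 in shLINE_Orf1, -0.06 in shLINE_Orf2, -0.46 in shLINE_MdV_I and 0.12 in shLINE_Orf1+LINE-1.

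Psmb6 encodes a catalytic subunit of the constitutive 20S proteasome (chr11:70525367-70527858, plus strand). It was at 556, 336 and 418 CPM in shLINE_Orf1, 339.9, 335 and 397 CPM in shLINE_Orf2, 347, 343 and 390.5 CPM in shLINE_MdV_I and 369, 373 and 382 CPM in shLINE_Orf1+LINE-1, against 174, 271 and 200.1 CPM in shControl. The hairpin libraries did not overlap with shControl, with shControl replicate 2 highest among the controls and shLINE_Orf1 replicate 1 highest of all. Psmb6 rose by 0.82 ± 0.14 (adjusted p = 0.0179), the 1 called of 31 proteasome subunits, of which 7 were positive, with a list median of -0.03. Without shLINE_Orf1 replicate 1 and shControl replicate 2 Psmb6 was again the 1 subunit called. Desi1, an isopeptidase that removes the modifier SUMO from proteins (chr15:81992523-82033862, minus strand), was at 75, 85 and 77.5 CPM in shLINE_Orf1, 85.5, 80.9 and 80.6 CPM in shLINE_Orf2, 82.3, 79.5 and 80.4 CPM in shLINE_MdV_I and 86.2, 83.5 and 80.9 CPM in shLINE_Orf1+LINE-1, against 50.3, 53.7 and 59.4 CPM in shControl. Its 12 hairpin libraries stood close together, with an SD of 3.30 CPM. Desi1 rose by 0.58 ± 0.07 (adjusted p = 0.00188), and its group values were 0.54 ± 0.09 in shLINE_Orf1, 0.60 ± 0.09 in shLINE_Orf2, 0.57 ± 0.09 in shLINE_MdV_I and 0.62 ± 0.09 in shLINE_Orf1+LINE-1. Desi1 overlaps Xrcc6 on the opposite strand. Xrcc6 had a similar count, a log2 fold change of 0.06 and no call.

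Bod1, which helps chromosomes attach to both spindle poles, was at 96 to 125 CPM in the 12 hairpin libraries (median 106), against 58.6, 82.7 and 67.8 CPM in shControl, and it rose by 0.61 ± 0.10 (adjusted p = 0.0127). Nek6, a mitotic kinase, rose by 0.35 ± 0.06 (adjusted p = 0.0235), and its locus overlaps the proteasome gene Psmb7, which had a log2 fold change of 0.03. Diaph3, a formin that nucleates actin filaments, rose by 0.57 ± 0.11 (adjusted p = 0.0323), and Arpc1b, a subunit of the Arp2/3 complex, by 0.43 ± 0.08 (adjusted p = 0.0201). Arpc1b overlaps Pdap1, which had a log2 fold change of -0.01. Map2k3, a kinase that activates p38, rose by 0.47 ± 0.09 (adjusted p = 0.0248). Hbs1l, a GTPase that rescues stalled ribosomes, was at 104 to 123 CPM in the 12 hairpin libraries (median 115), against 85.9, 70.8 and 84.2 CPM in shControl, and it rose by 0.51 ± 0.08 (adjusted p = 0.00966). Eral1, a GTPase needed to assemble the small mitochondrial ribosomal subunit, rose by 0.45 ± 0.08 (adjusted p = 0.0255). Of 41 genes of mitosis and G2/M none was called by edgeR, with 7 higher and 0 lower at an unadjusted p under 0.05, none called by DESeq2 or limma-voom, 30 positive and a list median of 0.12. Without the 2 libraries that stand apart, 4 of these were called higher (Ube2c, Birc5, Cdca3 and Ccnb2), with a list median of 0.09.

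Called genes for an ion channel and for neuronal proteins went both ways. Tmem63b, an ion channel opened by osmotic or mechanical stress, was at 69.5 to 113 CPM in the 12 hairpin libraries (median 95.8), against 64.7, 52 and 68.2 CPM in shControl, and it rose by 0.64 ± 0.12 (adjusted p = 0.0317). Tmem63b overlaps Mrpl14, which had a log2 fold change of 0.03. Ncald, a calcium sensor of the neurocalcin family, rose by 0.43 ± 0.09 (adjusted p = 0.0439) and Ndrg4 by 0.50 ± 0.09 (adjusted p = 0.0164). Gabra2, the alpha-2 subunit of the GABA-A receptor, was at 23.3 to 43.7 CPM in the 12 hairpin libraries (median 30.8), against 61.9, 42.3 and 44.8 CPM in shControl. Here the groups overlapped, and shLINE_MdV_I replicate 3 stood at 43.7 CPM, above shControl replicate 2 at 42.3 CPM. Gabra2 fell by 0.73 ± 0.14 (adjusted p = 0.0255). Of 10 tested neuronal markers none was called by edgeR, with 1 higher and 2 lower at an unadjusted p under 0.05 and 1 called by each of DESeq2 and limma-voom.

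Called metabolic enzymes also differed in direction. Cbs, which makes cystathionine from homocysteine and serine, was at 73.8 to 82.9 CPM in the 12 hairpin libraries (median 76.6), against 58, 61.8 and 57.3 CPM in shControl, and Gatm, the first enzyme of creatine synthesis, was at 286 to 368 CPM in the 12 hairpin libraries (median 323), against 255, 237 and 227 CPM in shControl. For both genes all hairpin libraries were above all shControl libraries. Cbs rose by 0.40 ± 0.06 (adjusted p = 0.0127) and Gatm by 0.42 ± 0.07 (adjusted p = 0.0132). Ass1, which makes argininosuccinate from citrulline and aspartate, was at 1.22 to 1.89 CPM in the 12 hairpin libraries (median 1.60), against 3.39, 2.89 and 3.68 CPM in shControl, and it fell by 1.10 ± 0.15 (adjusted p = 0.0043) with no overlap. The cholesterol synthesis list had 22 of 25 genes positive and a median of 0.09, and none was called by edgeR, with 3 higher and 0 lower at an unadjusted p under 0.05 and none called by DESeq2 or limma-voom. The glycolysis list had 16 of 20 positive with a median of 0.10, none called by edgeR, 1 higher and 0 lower at an unadjusted p under 0.05, and 1 called by each of DESeq2 and limma-voom. Aldoc and Ldhb of this list were called higher without the 2 libraries that stand apart. Over all genes 46.4% were positive.

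The remaining higher genes included 2 membrane proteins at low levels. Tmem141 was at 11.6, 6.39 and 5.96 CPM in shLINE_Orf1, 5.24, 4.58 and 5.48 CPM in shLINE_Orf2, 5.13, 5.42 and 5.27 CPM in shLINE_MdV_I and 4.40, 4.33 and 5.73 CPM in shLINE_Orf1+LINE-1, against 2.30, 3.28 and 2.31 CPM in shControl, with shLINE_Orf1 replicate 1 highest. It rose by 1.11 ± 0.20 (adjusted p = 0.0208). Its most abundant transcript in the hairpin libraries held 53.1% of its counts there, against 31.3% in shControl. Tmem25 was at 4.46 to 6.78 CPM in the 12 hairpin libraries (median 5.71), against 3.48, 3.63 and 2.84 CPM in shControl, and it rose by 0.77 ± 0.14 (adjusted p = 0.0217). Gpbp1l1 rose by 0.59 ± 0.11 (adjusted p = 0.0207), Lrrc40 by 0.43 ± 0.08 (adjusted p = 0.0248) and R3hdm4 by 0.39 ± 0.08 (adjusted p = 0.0439). The protein-coding gene 4931406C07Rik, which overlaps Taf1d on the opposite strand, rose by 0.53 ± 0.11 (adjusted p = 0.0413). Banp, a nuclear protein that binds DNA, rose by 0.49 ± 0.10 (adjusted p = 0.0449), and its hairpin and shControl libraries met near 17.2 CPM. Banp overlaps the gene model Gm20388 on the same strand, which held more counts and had a log2 fold change of -0.11.

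**Figure D3:**
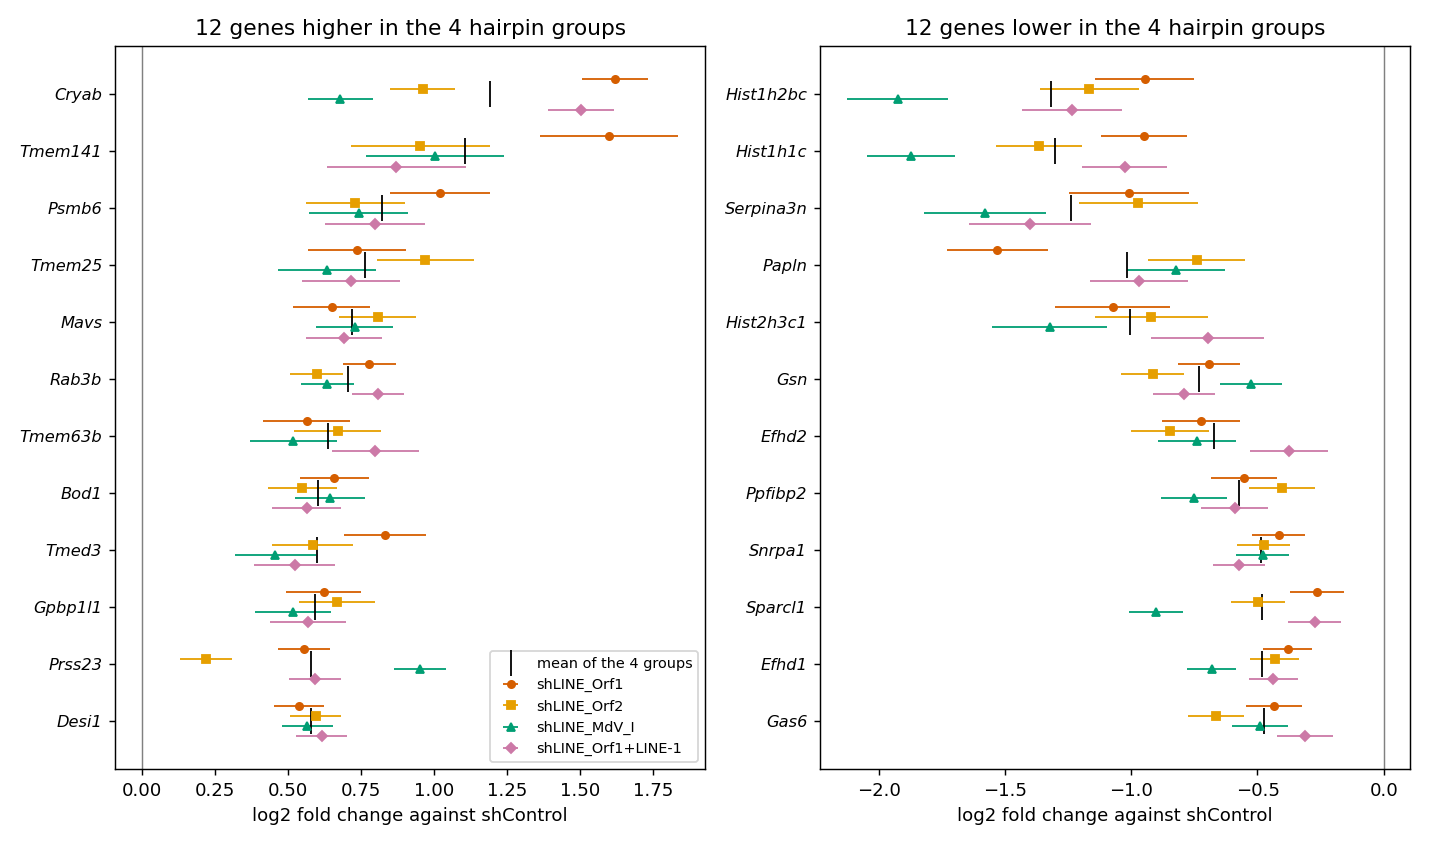
Log2 fold change against shControl, with its SE, in each of the 4 hairpin groups (colour and shape) for the 12 named genes with the largest rise (left) and the 12 with the largest fall (right), and the mean of the 4 groups as a black tick. The 4 contrasts use the same shControl libraries. Desi1 has nearly the same value in every group, whereas Cryab, Prss23, Sparcl1 and both chromosome 13 histones do not.

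Histone genes showed the largest falls. Hist1h2bc, a gene for the core histone H2B (chr13:23684199-23692908, plus strand), was at 169, 102 and 105 CPM in shLINE_Orf1, 98.1, 114 and 111 CPM in shLINE_Orf2, 59.3, 61.5 and 69.8 CPM in shLINE_MdV_I and 102, 102 and 104 CPM in shLINE_Orf1+LINE-1, against 194, 323 and 207 CPM in shControl. The highest hairpin library was shLINE_Orf1 replicate 1 and the highest control was shControl replicate 2. No hairpin library overlapped with shControl. Hist1h2bc fell by 1.32 ± 0.14 (adjusted p = 0.00042), with group values of -0.95 ± 0.20 in shLINE_Orf1, -1.17 ± 0.20 in shLINE_Orf2, -1.93 ± 0.20 in shLINE_MdV_I and -1.24 ± 0.20 in shLINE_Orf1+LINE-1. Hist1h1c, for the linker histone H1.2 (chr13:23738808-23740367, plus strand), was at 100.2, 59.9 and 65.3 CPM in shLINE_Orf1, 52.9, 59.8 and 56.2 CPM in shLINE_Orf2, 34.9, 41.5 and 42.2 CPM in shLINE_MdV_I and 67, 72.4 and 74.3 CPM in shLINE_Orf1+LINE-1, against 124, 175 and 136 CPM in shControl. Again shLINE_Orf1 replicate 1 was the highest hairpin library, below every shControl library. Hist1h1c fell by 1.30 ± 0.12 (adjusted p = 0.00015). The 2 genes lie 45899 bases apart on chromosome 13, and their 15 log2 CPM values had a Pearson correlation of 0.973 over all libraries and 0.924 over the 12 hairpin libraries. The next most like Hist1h2bc were Hist3h2a (0.940), Scarb2 (0.924), Uap1l1 (0.923) and Lalba (0.919).

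The other 2 called histones were Hist3h2a, for a core histone H2A, and Hist2h3c1, for a core histone H3. Hist3h2a was at 49.95, 39.6 and 41.2 CPM in shLINE_Orf1, 36.6, 38.5 and 41.3 CPM in shLINE_Orf2, 34.9, 36.5 and 36.9 CPM in shLINE_MdV_I and 39.7, 41.4 and 43.4 CPM in shLINE_Orf1+LINE-1, against 49.7, 76.6 and 59.9 CPM in shControl. It overlapped between groups by 1 library on each side, with shLINE_Orf1 replicate 1 just above shControl replicate 1. Hist3h2a fell by 0.64 ± 0.10 (adjusted p = 0.0127). Hist2h3c1 was at 2.41, 4.99 and 2.85 CPM in shLINE_Orf1, 3.20, 4.52 and 3.66 CPM in shLINE_Orf2, 2.78, 2.80 and 3.03 CPM in shLINE_MdV_I and 4.93, 3.95 and 4.41 CPM in shLINE_Orf1+LINE-1, against 7.67, 6.26 and 7.63 CPM in shControl. Its hairpin libraries did not overlap with shControl, and it fell by 1.004 ± 0.17 (adjusted p = 0.0136). Histone genes have near-identical copies, between which the estimated counts could be split, so values for single copies are uncertain. Most replication-dependent histone mRNAs end in a stem-loop in place of a poly(A) tail, and SMART-seq2 methods prime on poly(A).

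Over whole lists, 3 of 57 tested core histones and 1 of 7 linker histones were called lower and none higher. Of the core histones 8 were positive, 15 were lower and 0 higher at an unadjusted p under 0.05, and the median was -0.23, beside -0.01 over all genes. The core histone medians by group were 0.12 in shLINE_Orf1, -0.38 in shLINE_Orf2, -0.44 in shLINE_MdV_I and -0.21 in shLINE_Orf1+LINE-1. The list medians thus differed in sign between groups, a difference that was not tested. Without the 2 libraries that stand apart, 5 core histones were called lower and none higher, with a median of -0.12. The linker histone median was -0.10, and 0.02 without those 2 libraries. Both libraries were also the highest of their group for Hist1h1c and Hist1h2bc and had the highest share of mitochondrial mRNA, whose part in these values was not tested.

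Promoter sequences are shown for the 3 called histones found in the RefSeq table and for Lamp1 and Rab3b, since the called histones all fell and the level of Lamp1 varied most like that of Cryab. They are 300 bases each, 250 before to 50 after the start of the gene, from RefSeq on GRCm38.p6, and 47 of the 59 called genes had an entry. Capitals mark every match, on either strand, to the motifs searched: the CCAAT box (CCAAT), the TATA box (TATAAA), the heat shock element core (GAANNTTC), the E-box (CACGTG), the cyclic AMP response element (TGACGTCA), the GC box (GGGCGG) and the octamer (ATTTGCAT). Adjacent GC boxes may overlap.
Hist1h1c, chr13:23738557-23738856, plus strand: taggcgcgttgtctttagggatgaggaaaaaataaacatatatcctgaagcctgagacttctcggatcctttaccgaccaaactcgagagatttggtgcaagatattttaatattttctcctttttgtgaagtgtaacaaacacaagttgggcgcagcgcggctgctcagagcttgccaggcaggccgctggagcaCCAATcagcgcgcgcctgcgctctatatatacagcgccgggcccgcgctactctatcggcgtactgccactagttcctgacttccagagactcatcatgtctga
Hist3h2a, chr11:58954435-58954734, plus strand: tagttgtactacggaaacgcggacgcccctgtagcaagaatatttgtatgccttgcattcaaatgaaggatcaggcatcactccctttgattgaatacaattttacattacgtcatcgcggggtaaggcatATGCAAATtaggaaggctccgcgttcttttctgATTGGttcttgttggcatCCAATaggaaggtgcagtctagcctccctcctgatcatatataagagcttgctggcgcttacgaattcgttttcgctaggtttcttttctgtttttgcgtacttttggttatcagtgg
Hist2h3c1, chr3:96246435-96246734, plus strand: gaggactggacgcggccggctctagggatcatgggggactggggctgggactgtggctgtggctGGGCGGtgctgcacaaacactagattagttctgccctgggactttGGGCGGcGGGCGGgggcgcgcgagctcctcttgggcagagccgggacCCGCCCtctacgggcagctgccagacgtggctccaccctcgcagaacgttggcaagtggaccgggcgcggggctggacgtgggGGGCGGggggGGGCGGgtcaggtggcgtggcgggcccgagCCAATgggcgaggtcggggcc
Lamp1, chr8:13158911-13159210, plus strand: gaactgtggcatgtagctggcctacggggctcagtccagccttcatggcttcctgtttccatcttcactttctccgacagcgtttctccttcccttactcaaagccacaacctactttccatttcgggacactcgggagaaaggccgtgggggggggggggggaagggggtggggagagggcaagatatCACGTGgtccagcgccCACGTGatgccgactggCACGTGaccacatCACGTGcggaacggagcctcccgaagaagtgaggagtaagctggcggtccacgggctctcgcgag
Rab3b, chr4:108878820-108879119, plus strand: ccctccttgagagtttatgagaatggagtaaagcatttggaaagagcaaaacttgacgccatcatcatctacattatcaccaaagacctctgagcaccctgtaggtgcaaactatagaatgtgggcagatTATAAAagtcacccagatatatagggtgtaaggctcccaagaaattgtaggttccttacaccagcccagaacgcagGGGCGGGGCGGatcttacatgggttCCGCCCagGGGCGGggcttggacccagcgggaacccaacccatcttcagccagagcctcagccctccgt

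All 3 histone promoters held a CCAAT box, against 37.4% of the 32851 promoters in the table. Over the called genes, it was in 13 of 43 promoters of higher genes and 8 of 24 promoters of lower genes. The Hist3h2a promoter held the octamer, as did 1.74% of all promoters. The Lamp1 promoter held 4 E-boxes, and 7.15% of all promoters held at least 1. The Rab3b promoter held a TATA box, as did 13.6% of all promoters, and several GC boxes. Over the called genes, 29 of 43 promoters of higher genes and 17 of 24 promoters of lower genes held a GC box, against 35.7% of all promoters, which include those of genes not expressed here. The E-box was in 4 of the 43 and 2 of the 24. The heat shock element core was in 3 of the 43 and 3 of the 24, and in 7.86% of all promoters. These matches describe the letters in the window only.

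Genes of actin, the matrix and secreted proteins were also among the lower genes. Gsn encodes gelsolin, which severs actin filaments (chr2:35256380-35307892, plus strand). It was at 28.6, 38.9 and 35.6 CPM in shLINE_Orf1, 33.3, 26.6 and 28.3 CPM in shLINE_Orf2, 41.7, 38.8 and 35.1 CPM in shLINE_MdV_I and 34.4, 30.6 and 31.3 CPM in shLINE_Orf1+LINE-1, against 52.5, 56.4 and 57.4 CPM in shControl. No hairpin library came above 41.7 CPM and no shControl library below 52.5 CPM. Gsn fell by 0.73 ± 0.09 (adjusted p = 0.00192). Cald1, the actin- and myosin-binding protein caldesmon, was at 86.8 to 105 CPM in the 12 hairpin libraries (median 93.9), against 133, 130.2 and 117 CPM in shControl, and it fell by 0.43 ± 0.07 (adjusted p = 0.0111) without overlap. Of 22 tested genes of actin severing and contraction, these 2 were called lower and none higher, 14 were positive and the median was 0.05. Without the 2 libraries that stand apart 2 were called higher and 2 lower, with Tagln2 and Myl9 joining Gsn and Cald1. Efhd2, a calcium-binding protein that associates with actin, was at 11 to 21.8 CPM in the 12 hairpin libraries (median 15.5), against 23.1, 27 and 24.5 CPM in shControl, and it fell by 0.67 ± 0.12 (adjusted p = 0.0179). Its relative Efhd1, a calcium-binding protein of mitochondria, was at 17.5 to 23.5 CPM in the 12 hairpin libraries (median 20.8), against 29.8, 29.8 and 27.4 CPM in shControl, and it fell by 0.48 ± 0.07 (adjusted p = 0.00966).

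A pair of secreted ligands that take part in clearing dying cells fell together. Mfge8 bridges phosphatidylserine on dying cells to integrins of phagocytes (chr7:79133768-79149060, minus strand). It was at 157, 156 and 162 CPM in shLINE_Orf1, 161, 152 and 161 CPM in shLINE_Orf2, 160.3, 164 and 157 CPM in shLINE_MdV_I and 160.5, 156 and 158 CPM in shLINE_Orf1+LINE-1, against 202, 228 and 211 CPM in shControl. The 12 hairpin libraries had an SD of 3.31 CPM. Mfge8 fell by 0.43 ± 0.06 (adjusted p = 0.0043), and the 4 group values of -0.43 ± 0.08 in shLINE_Orf1, -0.44 ± 0.08 in shLINE_Orf2, -0.41 ± 0.08 in shLINE_MdV_I and -0.43 ± 0.08 in shLINE_Orf1+LINE-1 had an adjusted p for any difference among them of 0.994. Gas6, a ligand of the receptors Tyro3, Axl and Mertk, was at 37.2, 36.4 and 40.3 CPM in shLINE_Orf1, 37.4, 29 and 30.6 CPM in shLINE_Orf2, 37.7, 34.5 and 37.6 CPM in shLINE_MdV_I and 38.8, 44.2 and 41.1 CPM in shLINE_Orf1+LINE-1, against 46, 55.2 and 52.8 CPM in shControl. Its highest hairpin library lay below its lowest shControl library, and it fell by 0.48 ± 0.08 (adjusted p = 0.0207). Of the 14 tested genes of these ligands, their receptors and phagocytosis, both were called lower, 3 were positive and the median was -0.08. Dock1 was also called lower without the 2 libraries that stand apart.

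Serpina3n, a secreted inhibitor of serine proteases, was at 2.84, 3.63 and 2.96 CPM in shLINE_Orf1, 4.51, 3.06 and 2.12 CPM in shLINE_Orf2, 2.02, 1.97 and 2.36 CPM in shLINE_MdV_I and 3.08, 1.95 and 2.15 CPM in shLINE_Orf1+LINE-1, against 6.38, 6.09 and 6.51 CPM in shControl. Its hairpin libraries did not overlap with shControl, at levels of a few CPM, and it fell by 1.24 ± 0.17 (adjusted p = 0.0043). Papln, the extracellular matrix protein papilin, was at 1.47, 2.83 and 1.84 CPM in shLINE_Orf1, 3.80, 3.72 and 3.09 CPM in shLINE_Orf2, 3.46, 3.29 and 3.28 CPM in shLINE_MdV_I and 3.20, 3.02 and 2.84 CPM in shLINE_Orf1+LINE-1, against 6.16, 5.53 and 6.05 CPM in shControl. It fell by 1.02 ± 0.14 (adjusted p = 0.00431), again without overlap, and shLINE_Orf1 was the lowest group. Itga4, the alpha-4 integrin subunit, was at 10.5, 12.8 and 11.5 CPM in shLINE_Orf1, 8.48, 8.12 and 8.68 CPM in shLINE_Orf2, 10.8, 10.1 and 12.9 CPM in shLINE_MdV_I and 12.7, 12.3 and 13.5 CPM in shLINE_Orf1+LINE-1, against 21.9, 11.8 and 17.9 CPM in shControl. Its groups overlapped, because shControl replicate 2 at 11.8 CPM lay within the hairpin libraries, and it fell by 0.66 ± 0.13 (adjusted p = 0.0449). Of 34 tested genes of the extracellular matrix and integrins, Itga4 was the 1 called by edgeR, with 1 higher and 6 lower at an unadjusted p under 0.05, 2 called by DESeq2 and 3 by limma-voom, 17 positive and a median of 0.002. Without the 2 libraries that stand apart 4 were called lower (Vcan, Itga4, Col9a3 and Itga1), with a median of -0.06. Of 10 tested serpins, Serpina3n and Serpinb1a were called lower and none higher, 4 were positive and the median was -0.07.

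Snrpa1, a protein of the spliceosomal U2 particle, was at 102 to 134 CPM in the 12 hairpin libraries (median 112), against 143, 175 and 154 CPM in shControl, and it fell by 0.49 ± 0.08 (adjusted p = 0.0132). Ppfibp2, a liprin, was at 5.71 to 8.39 CPM in the 12 hairpin libraries (median 7.11), against 11.1, 10.6 and 10.3 CPM in shControl, and it fell by 0.57 ± 0.10 (adjusted p = 0.0179); it overlaps Cyb5r2, which had a log2 fold change of -0.02. Gem, a small GTPase that inhibits calcium channels, was at 7.02 to 9.60 CPM in the 12 hairpin libraries (median 7.76), against 11, 10.6 and 10.3 CPM in shControl, and it fell by 0.44 ± 0.09 (adjusted p = 0.0385). Cmtm3 was at 59.8 to 69.5 CPM in the 12 hairpin libraries (median 62.3), against 75, 81.7 and 81.3 CPM in shControl, and it fell by 0.32 ± 0.06 (adjusted p = 0.0291). Fzd9, a Wnt receptor, was at 167 to 230.5 CPM in the 12 hairpin libraries (median 183), against 215, 268 and 242 CPM in shControl, with shLINE_Orf1 replicate 2 within the shControl range. It did not meet the rule for shifting alike, because its unadjusted p in shLINE_Orf1 was 0.0542.

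The 4 hairpin groups also differed from each other in 123 genes (0.812% of genes tested), in a test whose contrasts do not use the shControl libraries. Of the 59 called genes, 8 were among them: Cryab (adjusted p = 0.00382), Gm15280 (0.00616), Prss23 (0.00693), Cplx1 (0.00789), Sparcl1 (0.0209), Mtmr11 (0.0243), Serpinb1a (0.0389) and Hist1h1c (0.0434). A difference from shControl was not shown for all 8 in every group, since the log2 fold change of Gm15280 in shLINE_MdV_I was 0.05 ± 0.38 and that of Serpinb1a in shLINE_Orf1 was -0.32 ± 0.21. The count of 123 fell to 0 without the shLINE_MdV_I group. It was 19, 42 and 51 without shLINE_MdV_I replicates 1, 2 and 3, 39, 44 and 52 without shLINE_Orf1+LINE-1 replicates 1, 2 and 3, 47 without shLINE_Orf2 replicate 2 and 226 without shLINE_Orf1 replicate 1. Prss23, a serine protease, was at 59.6, 65.3 and 62.6 CPM in shLINE_Orf1, 46.7, 52.8 and 49 CPM in shLINE_Orf2, 82, 77.7 and 87.1 CPM in shLINE_MdV_I and 67.8, 60.9 and 63.7 CPM in shLINE_Orf1+LINE-1, against 43.6, 43.9 and 40.1 CPM in shControl. It was highest in shLINE_MdV_I and nearest to shControl in shLINE_Orf2, and its mean rise was 0.58 ± 0.07 (adjusted p = 0.00192). Cplx1, a complexin that binds SNARE proteins at synapses, was at 19.99, 21 and 21.6 CPM in shLINE_Orf1, 20.8, 17.3 and 18.7 CPM in shLINE_Orf2, 34.1, 29.6 and 35 CPM in shLINE_MdV_I and 16.6, 20.4 and 21 CPM in shLINE_Orf1+LINE-1, against 14.8, 14.9 and 16.4 CPM in shControl. Its shLINE_MdV_I libraries stood above all others, and its mean rise was 0.54 ± 0.10 (adjusted p = 0.0201). The 10 tested neuronal markers had a median log2 fold change of 0.46 in shLINE_MdV_I, 0.06 in shLINE_Orf2, -0.16 in shLINE_Orf1+LINE-1 and -0.39 in shLINE_Orf1. Among them Tubb3 was at 0.51 ± 0.19 in shLINE_MdV_I, with an adjusted p for a difference among groups of 0.0967. Tubb3 overlaps the gene model Gm20388 on the same strand, which held more counts and had a mean log2 fold change of -0.11. The part of the neuronal markers in the values of Cplx1 was not tested. Mtmr11, of the myotubularin family, was at 61.8, 63.6 and 62.8 CPM in shLINE_Orf1, 60.5, 52.6 and 56.6 CPM in shLINE_Orf2, 80.4, 80.2 and 81.1 CPM in shLINE_MdV_I and 65.6, 57.6 and 62.9 CPM in shLINE_Orf1+LINE-1, against 47.7, 48.2 and 50.3 CPM in shControl, with the same highest group and a mean rise of 0.41 ± 0.07 (adjusted p = 0.0132).

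Among the lower genes, Sparcl1, a matricellular protein secreted by astrocytes, was at 381, 373 and 318 CPM in shLINE_Orf1, 329, 292 and 291 CPM in shLINE_Orf2, 213, 225 and 251 CPM in shLINE_MdV_I and 357, 338 and 370.3 CPM in shLINE_Orf1+LINE-1, against 479, 396 and 413 CPM in shControl. It was lowest in shLINE_MdV_I, and it fell by 0.48 ± 0.08 (adjusted p = 0.0142). Of 10 astrocyte markers it was the 1 called by edgeR, with 2 higher and 3 lower at an unadjusted p under 0.05, 3 called by DESeq2 and 2 by limma-voom, 6 positive and a list median of 0.07. Aldoc was also called, as higher, without the 2 libraries that stand apart. Serpinb1a, an inhibitor of neutrophil proteases, was at 14.5, 8.49 and 9.34 CPM in shLINE_Orf1, 5.30, 5.51 and 6.73 CPM in shLINE_Orf2, 5.25, 4.36 and 5.52 CPM in shLINE_MdV_I and 9.61, 8.03 and 10.6 CPM in shLINE_Orf1+LINE-1, against 13.1, 16.7 and 10.4 CPM in shControl. Its shLINE_Orf2 and shLINE_MdV_I libraries were low and its shLINE_Orf1 and shLINE_Orf1+LINE-1 libraries overlapped with shControl, with a mean log2 fold change of -0.86 ± 0.16. Hist1h1c had its lowest values in shLINE_MdV_I, where its log2 fold change was -1.87, against -0.95 in shLINE_Orf1. Gm15280, a predicted pseudogene, was at 1.93, 3.38 and 1.69 CPM in shLINE_Orf1, 2.45, 2.63 and 2.10 CPM in shLINE_Orf2, 0.399, 0.244 and 0.397 CPM in shLINE_MdV_I and 1.004, 1.57 and 1.08 CPM in shLINE_Orf1+LINE-1, against 0.236, 0.281 and 0.483 CPM in shControl. At these low levels it was near shControl in shLINE_MdV_I and higher in the other hairpin groups. For the 50 genes that shifted alike, the smallest adjusted p for a difference among groups was 0.0947, for Hist1h2bc, and a p that misses the threshold does not show equal shifts.

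Adding a full-length LINE-1 to the shLINE_Orf1 hairpin gave a comparison without shControl. In shLINE_Orf1+LINE-1 against shLINE_Orf1, edgeR called 0 of the 15141 genes, 1680 (11.1%) had an unadjusted p under 0.05, DESeq2 called 20 and limma-voom 399. Of the 59 genes of the common response, 6 had an unadjusted p under 0.05, and the smallest adjusted p was 0.422. The mean contrast that chose the 59 genes holds both groups, so their values here are a description. The widest values were -0.93 ± 0.31 for Gm15280, -0.73 ± 0.23 for Tmem141 and 0.56 ± 0.20 for Papln. For Rab3b the difference was 0.03 ± 0.09, for Atp6v1b2 -0.07 ± 0.08, for Mfge8 -0.003 ± 0.08 and for Hist1h1c -0.08 ± 0.17.

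Several lists that bear on the hairpin method, on LINE-1 control or on stress held no called gene in edgeR's fit with all libraries. The heat shock and chaperone list, with Cryab, and the RNA and DNA sensing list, with Mavs, are not among them. Of 16 genes of RNA interference and small RNA processing, none was called by edgeR, 0 were higher and 0 lower at an unadjusted p under 0.05, none was called by DESeq2 or limma-voom, and the median was 0.01. Of 37 genes of retrotransposon restriction and heterochromatin, none was called by edgeR, 0 were higher and 1 lower at an unadjusted p under 0.05, none was called by the other tools, 10 were positive and the median was -0.03. Of 28 p53 targets none was called by edgeR, with 0 higher and 3 lower at an unadjusted p under 0.05, 0 called by DESeq2 and 1 by limma-voom, and Trp53inp1 was called lower by edgeR without the 2 libraries that stand apart. Of 28 genes of the integrated stress and unfolded protein responses none was called by edgeR, DESeq2 or limma-voom, and 0 had an unadjusted p under 0.05. Of 78 cytosolic ribosomal protein genes none was called by any of the 3 tools and 0 had an unadjusted p under 0.05, with a median of -0.01. Without the 2 libraries that stand apart Rpl8 and Fau were called higher and the median was 0.16. The group medians were 0.27 in shLINE_Orf1, -0.07 in shLINE_Orf2, -0.11 in shLINE_MdV_I and -0.12 in shLINE_Orf1+LINE-1. The fixed markers Sox2, Nes, Pax6, Olig2, Gfap, Dcx, Tubb3, Mki67, Cdkn1a and Isg15 were not called, with log2 fold changes between -0.30 ± 0.16 for Nes and 0.37 ± 0.20 for Gfap. Sox2 was at 141 to 207 CPM in the 12 hairpin libraries (median 193), against 189, 222 and 198 CPM in shControl, so the ranges overlapped.

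**Figure D4:**
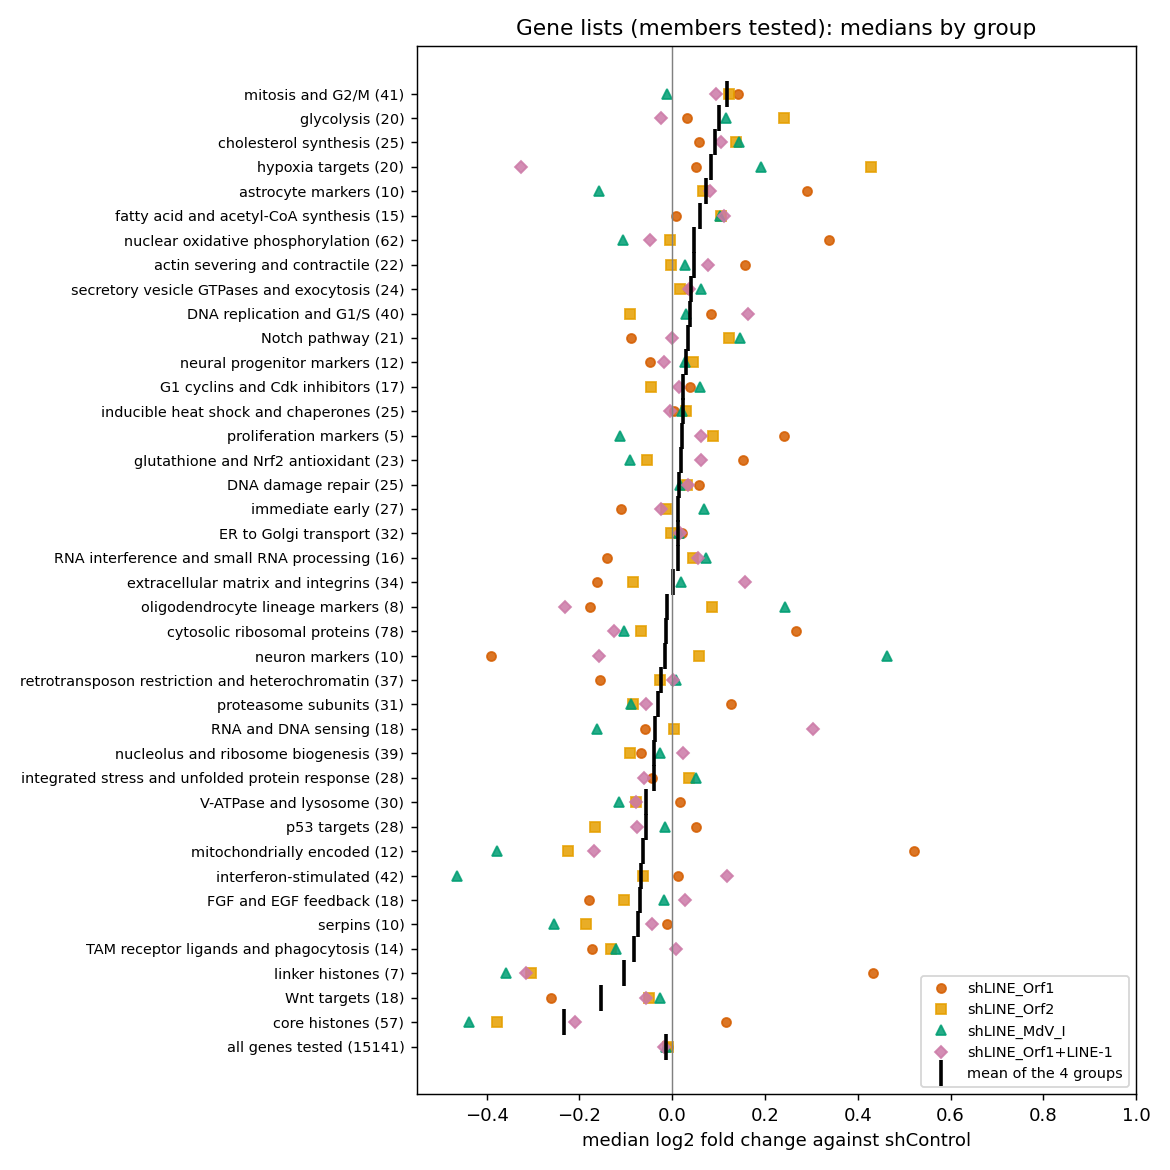
Median log2 fold change against shControl (horizontal axis) of gene lists in the 4 hairpin groups (colour and shape) and in their mean (black tick), with the number of members tested in brackets and all 15141 genes in the last line. The microglial, endothelial, and mural and fibroblast lists, with 3 or 4 members tested, are not shown. Among the lists shown core histones have the lowest mean, -0.23, while shLINE_Orf1 lies at 0.12. The next lowest is that of the Wnt targets, -0.15, and the means of the other lists shown lie within 0.12 of 0.

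The median exonic length was 3767 bases for the 37 higher and 2481 bases for the 22 lower genes, against 4334 bases over all genes tested, and 36 of the 37 higher and all 22 lower genes were protein-coding. Their median size of change was 0.54 for the higher and 0.65 for the lower genes on the log2 scale, against 0.10 over all genes. They were called on this same change, which favours a larger size. Among genes that shifted alike, the distance between the highest and lowest of the 4 group values had a median of 0.17 for the higher genes. It was 0.35 for the lower genes and 0.34 over all genes tested. The rule asks for the same sign and an unadjusted p under 0.05 in every group, and for no called difference among them. Both parts favour a short distance. Genes that shifted alike had a median level of 6.31 log2 CPM when higher and 4.75 when lower, against 4.32 over all genes tested. Besides the histone pair on chromosome 13, Mtmr11 and Hist2h3c1 lay 74966 bases apart on chromosome 3 and moved in opposite directions.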

How the data were processed

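RNA sequencing covered 15 libraries of sorted mouse neural progenitor cells, 3 in each of 5 groups taken from the sample titles. The authors deposited expected counts (estimated read counts) per transcript, without normalization. The submitters' processing notes name cutadapt, RSEM and mm10, with no version or order. The counting settings and any strand setting were not given in the sources used here. Transcripts were matched without version to GENCODE M21 (GRCm38). Of 111462 transcript rows, 110115 had a gene and were summed to 34910 genes and then rounded. The remaining 1347 transcripts and 1 blank row, with 0.595% to 0.650% of counts, were left out. The deposited table of the authors' own mixed model was not used here.

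Low genes were removed with filterByExpr at a minimum count of 10, which left 15141 genes. Libraries held 39204176 to 51070448 counts and were scaled with TMM. One model of the 5 groups was fitted with edgeR's robust quasi-likelihood method (common biological coefficient of variation 0.158), with Benjamini-Hochberg adjustment over all genes and calls at an adjusted p under 0.05. CPM is relative to TMM-scaled library sizes, with a prior count of 2 on the log2 scale. Contrasts were the mean of the 4 hairpin groups (weight 0.25 each) and each single group against shControl, the difference among the 4 hairpin groups, and shLINE_Orf1+LINE-1 against shLINE_Orf1. Fits were tested on simulated counts with known changes. Tests used edgeR 4.0.16, DESeq2 1.42.0, limma 3.58.1 and statmod 1.5.0 in R 4.3.3. Tables and plots were made in Python 3.11.15 (matplotlib 3.10.9, pandas 2.3.3, numpy 2.4.6).

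The comparison, the gene lists and the tests were chosen with earlier results of these data known. Named genes are, per direction, up to 15 with the largest change among those called, at a mean of 1 log2 CPM or more, with no overlap between the 12 hairpin and 3 shControl libraries and the same sign in all 4 groups, then called members of the lists, 10 fixed markers and, per direction, the 5 called genes with the smallest p for a difference among groups. Other called genes were named after their values were seen, and some results on single genes are not reported here. Alternatives were other scalings, filters and tools, thinning, the 2 compared sides alone, a block for the replicate number, a covariate for the final number in each library's description (1 or 12), and fits without single libraries or groups.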

Additional observations from a re-analysis of the deposited data

Results flagged for a closer look

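For 8 genes of the common response, the 4 hairpin groups differed from each other by edgeR's test with 3 degrees of freedom, adjusted over all genes tested. The adjusted p was 0.00382 for Cryab, 0.00616 for Gm15280, 0.00693 for Prss23, 0.00789 for Cplx1, 0.0209 for Sparcl1, 0.0243 for Mtmr11, 0.0389 for Serpinb1a and 0.0434 for Hist1h1c. In Cplx1, Mtmr11 and Prss23 the shLINE_MdV_I libraries were the highest of all 15, and in Sparcl1 and Hist1h1c they were the lowest. In Cryab the shLINE_MdV_I libraries were the lowest of the hairpin libraries and above all shControl libraries. No group of the study has 4 or more libraries, so no formal search for outlying libraries was run. The 2 libraries that stand apart were described by their place on the first principal component and their share of mitochondrial mRNA.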

How the results depend on the processing

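Over 30 alternatives, the 59 genes gave 1770 values, of which 1320 kept direction and call, 450 kept direction without the call and 0 changed direction. Each gene was called under 10 to 30 alternatives (median 24), and 10 genes under all 30: Cryab, Rab3b, Desi1, Atp6v1b2, Hist1h2bc, Hist1h1c, Serpina3n, Papln, Gsn and Mfge8. The alternatives reuse the libraries on which the 59 genes were called, which favours a kept direction. The counts moved, and the cause was not tested. They are given as higher and lower genes, then as higher and lower genes that shift alike, then as genes that differ among the hairpin groups. DESeq2 gave 140 and 87, 73 and 39, and 644. limma-voom gave 163 and 134, 116 and 57, and 2753. Without shLINE_Orf1 the counts were 87 and 76, 76 and 56, and 325. Without shLINE_Orf2 they were 7 and 8, 5 and 8, and 62. Without shLINE_MdV_I they were 11 and 9, 11 and 9, and 0. Without shLINE_Orf1+LINE-1 they were 11 and 11, 6 and 11, and 18. Without both libraries that stand apart, they were 196 and 201, 154 and 139, and 628. With the description number as a covariate they were 49 and 39, 41 and 26, and 235. Leaving out 1 library at a time gave 9 to 98 higher and 11 to 73 lower genes, 6 to 81 and 10 to 45 alike, 19 to 226 that differ among groups and 0 to 1 for the added LINE-1. For the added LINE-1, DESeq2 gave 20 genes, limma-voom 399, thinning 1 and the fit without shLINE_Orf2 1. RLE scaling, no scaling, both filters and the 2 sides alone kept the counts of the common response within 1.5 times. The genes changed more: of the 59, 45 stayed called with no scaling, 48 with no filter and 43 with the 2 sides alone. All 59 stayed called with RLE scaling and with the stricter filter.

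Deviations from the group mean were compared between libraries of different groups. Those with the same replicate number had correlations of -0.27 to 0.18 over 30 pairs, 3 of them over 0.1. Those with other numbers had -0.23 to 0.30 over 60 pairs, 10 of them over 0.1. With 3 libraries in each group, these values cannot show whether the numbers pair the samples. With the replicate block, 16 genes were higher and 15 lower, 12 and 15 of them alike, and 60 differed among groups. Thinned to the smallest total, the libraries gave 38 higher and 25 lower genes, and 58 of the 59 remained called. Lower depths were not tried.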
